A study of Mus musculus with 10 samples.

Results

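Transcripts of ceramide and sphingolipid metabolism were examined in visceral fat of mice labelled aADM2-tg and of WT mice. The set comprises 45 named genes, chosen by gene symbol, out of 56691 genes in the deposited table, and each symbol stood on 1 entry. Of these, 17 belong to ceramide synthesis and its brake, 10 to the breakdown of ceramide and sphingosine 1-phosphate, 15 to complex sphingolipids, and 3 are sphingosine 1-phosphate receptors.

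Ceramide is built in the endoplasmic reticulum. Serine palmitoyltransferase joins serine to palmitoyl-CoA, a reductase and the ceramide synthases follow, and a desaturase completes the molecule. Ceramide is then converted to sphingomyelin or glycosylated in the Golgi, or is cut by ceramidases to sphingosine, which kinases turn into sphingosine 1-phosphate (S1P), a signal read by G protein-coupled receptors. In fat, ceramides and the acyl chains they carry are studied chiefly for their link to insulin resistance.

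Poly(A) RNA of visceral adipose tissue was sequenced from male mice 10 weeks old on 8 weeks of chow diet, 1 library per mouse. The aADM2-tg group (tg1 to tg5) is described as overexpressing adrenomedullin 2, a vasoactive peptide of the calcitonin gene-related family, in adipose tissue, and the WT group (WT1 to WT5) is its control. Which promoter drives the transgene was not given in the sources used here. Counted reads per library numbered 16030435 to 18214504 in aADM2-tg and 16921357 to 18064306 in WT, so that the 3 counts allowed by a count of 0 correspond to at most 0.187 counts per 1e6 reads (CPM), counting error only.

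All directions below rest on the sample labels. The table has a pair of header lines that name the groups in opposite ways, and the second matches the labels. Adm2 itself had 0 counts in every aADM2-tg library and in 4 WT libraries and 2 counts in WT3, so it does not check the labels. The labels call the cells mature adipocytes, but endothelial, macrophage and fibroblast markers were present in every library, so values describe whole tissue, in which fewer cells of a type and less RNA per cell cannot be told apart.

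Libraries also differed in the RNA of other cell types, in part along the groups. Together, 27 genes that mark duct or ciliated epithelium summed to 964 normalised CPM in tg2 and 359 to 671 in WT2 to WT5, against 135 to 217 in tg1, tg3, tg4, tg5 and WT1, so that duct RNA was high in 1 of 5 aADM2-tg and 4 of 5 WT libraries. The mean log2 level of this list is called the duct score here. Normalised CPM are counts per 1e6 reads in tested genes after scaling between libraries by TMM (trimmed mean of M values). Summed levels of 6 adipocyte markers were 8568 to 14157 normalised CPM in aADM2-tg and 7194 to 9307 in WT, with 4 of 6 higher by the test used below. Of 7 fibroblast and progenitor markers 4 were lower and 1 higher, at sums of 2099 to 2956 against 4104 to 7065 normalised CPM, with no overlap. The difference in the sums lay largely in the collagens Col3a1, at means of 901 in aADM2-tg and 3115 in WT, and Col1a1, at 150 and 663. Dcn was at 1299 and 1285 (edgeR adjusted p = 0.927), and Ly6a, the higher gene, at 178 and 109. Of 4 tested male germ cell markers 3 were lower, at sums over all 8 listed of 0 to 15.4 against 1.57 to 173 normalised CPM. Of the 26 tested duct, 6 mesothelial and 1 tested epididymal genes none passed the test in edgeR. Mesothelial genes summed to 50.5 to 314 in aADM2-tg and 114 to 245 in WT, and the 6 epididymal genes to 0 to 121 against 1.20 to 81.3 normalised CPM. The epididymal sum of 121 was that of tg5, which is counted here among the libraries without duct RNA. Its duct score was 0.24, against at most -0.49 in tg1, tg3, tg4 and WT1. The part of these cells in the results below was not tested, except where a value is given.

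Of the 45 genes 39 passed the filter on low counts and were tested, with 7 higher and 4 lower in aADM2-tg (edgeR's quasi-likelihood test, Benjamini-Hochberg adjusted p under 0.05 over all 16591 tested genes). Those 11 are 28.2% of the tested set. Over all tested genes the share was 26.5%, with 13.8% higher and 12.7% lower, so that the set as a whole was called about as often as the rest of the transcriptome. The median log2 change was 0.10 in the set and 0.02 over all tested genes, and the median size of a change, sign aside, was 0.16 against 0.27. The groups did not overlap for 5 of the 39 genes, or 12.8%, against 17.7% of all tested genes.

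**Figure D1:**
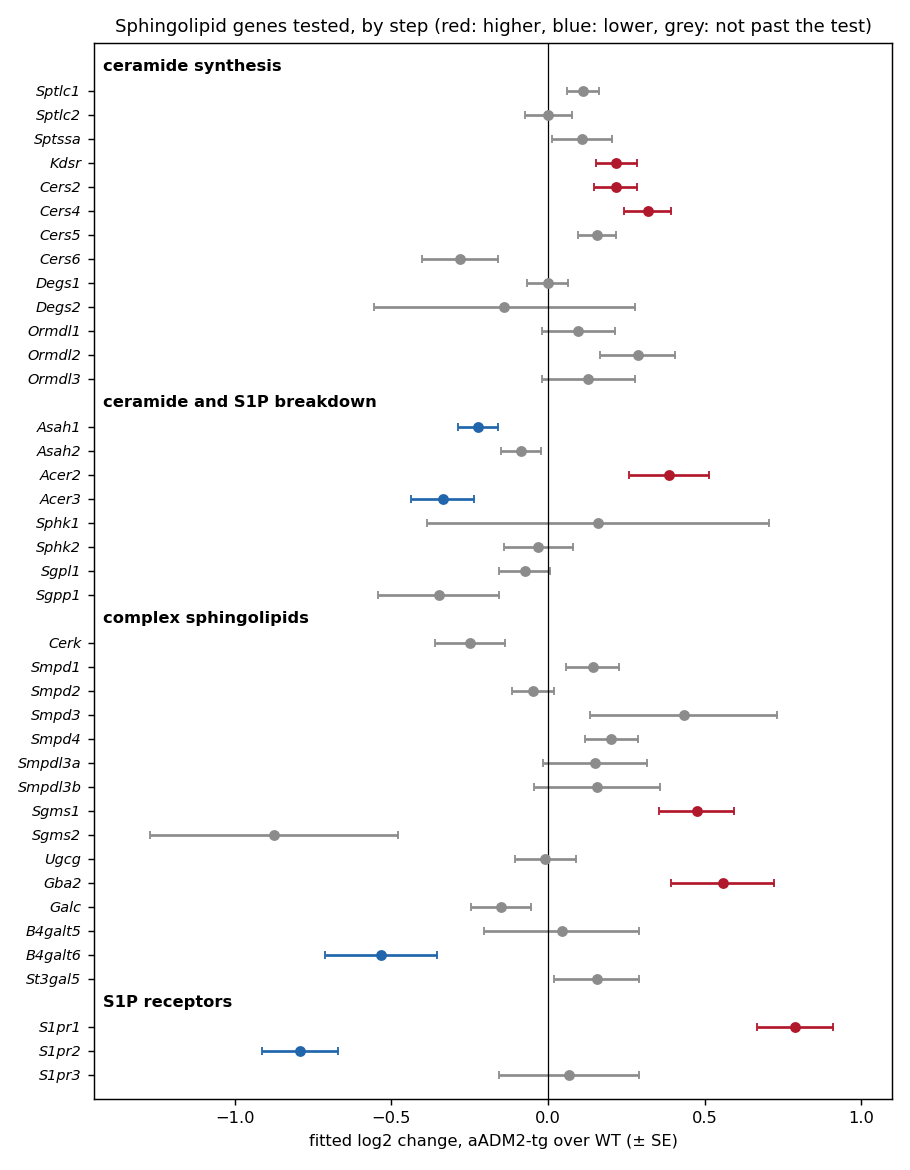
Fitted log2 change of aADM2-tg over WT (x axis, ± SE) for the 39 tested sphingolipid genes, in rows grouped by step, with genes past the test in red (higher) or blue (lower). The S1P receptor genes S1pr1 and S1pr2 lie at 0.79 and -0.79, and the synthesis genes past the test all lie to the right of 0.

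The clearest changes were at the receptors for S1P. S1pr1 rose 1.73-fold in aADM2-tg and S1pr2 fell to 0.577 of its WT level, in both cases with no overlap between the groups, while S1pr3 did not pass the test. S1pr1 encodes the receptor that couples to Gi, is abundant on endothelium and guides lymphocyte egress. S1pr2 encodes another receptor for the same lipid, and S1pr3 a receptor that couples to several G proteins.

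S1pr1 (ENSMUSG00000045092, chromosome 3, 115504082 to 115508721, minus strand, coordinates as in the table with no build given) stood at 210.3, 171, 199, 186 and 267 normalised CPM in tg1 to tg5, against 116.5, 105, 115, 141 and 120.2 in WT1 to WT5. The lowest transgenic library, tg2, still lay above the highest WT library, WT4. The means were 207 ± 36.9 and 119.7 ± 13.4 normalised CPM (SD, n = 5 each), a log2 change of 0.79 (SE 0.121, edgeR adjusted p = 0.00222). S1pr2 (ENSMUSG00000043895, chromosome 9, 20873657 to 20888077, minus strand) stood at 6.83, 6.09, 4.91, 6.44 and 5.89 normalised CPM in tg1 to tg5, against 11.6, 10.8, 9.30, 9.66 and 10.96 in WT1 to WT5. All 5 transgenic libraries were below every WT library. S1pr2 averaged 6.03 ± 0.722 in aADM2-tg and 10.5 ± 0.955 normalised CPM in WT (SD, n = 5 each), a log2 change of -0.79 (SE 0.123, edgeR adjusted p = 0.00225).

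S1pr3 showed a wide spread among transgenic libraries and no change past the test. It ranged from 13.1 to 32.7 with a mean of 20.5 ± 7.89 normalised CPM in aADM2-tg, and from 17.7 to 23.7 with a mean of 19.6 ± 2.47 in WT (log2 0.07, SE 0.224, edgeR adjusted p = 0.842). Per length the order of the receptors was the same in both groups: S1pr1 at 66.2 ± 12.1 FPKM (fragments per kilobase and per 1e6 counted reads) in aADM2-tg and 40.1 ± 4.69 in WT, then S1pr3 at 4.52 ± 1.84 and 4.475 ± 0.664, then S1pr2 at 0.741 ± 0.106 and 1.34 ± 0.0950. Within each library S1pr1 thus exceeded S1pr2 by 73.4 to 119 times in aADM2-tg and by 25.5 to 38.3 times in WT. As a share of the summed FPKM of the 3 receptors, S1pr2 was 1.06% ± 0.212 in aADM2-tg and 2.94% ± 0.409 in WT, and S1pr1 was 92.7% ± 1.88 and 87.2% ± 2.24. Without the division by length, as shares of normalised CPM, S1pr2 was 2.65% and 7.03% and S1pr1 88.6% and 79.8%. The normalised CPM of S1pr1 and of S1pr2 alone already parted the groups. These ratios and shares restate those values and carry no test.

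**Figure D2:**
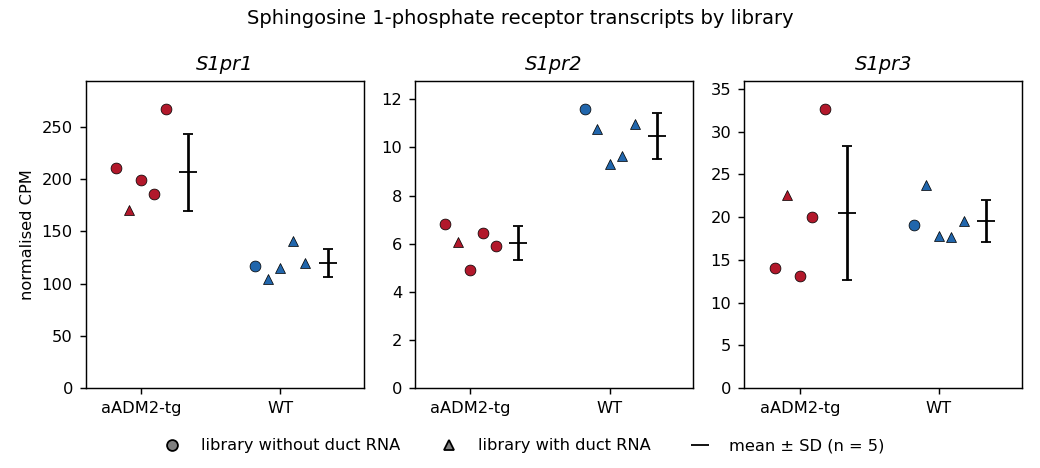
Normalised CPM (y axis, from 0) of S1pr1, S1pr2 and S1pr3 in each library, aADM2-tg left and WT right, with triangles for libraries with duct RNA and bars for mean ± SD. All 5 transgenic points lie above the WT points for S1pr1 and below them for S1pr2, and the groups overlap for S1pr3.

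Neither S1pr1 nor S1pr2 overlapped between the groups, so the direction of change was all but fixed in advance in any subset of libraries. Comparisons within libraries that share the state of duct RNA therefore give sizes only. With tg1, tg3, tg4 and tg5 against WT1 the log2 change was 0.85 for S1pr1 and -0.98 for S1pr2, and with tg2 against WT2 to WT5 it was 0.49 and -0.75. In these small comparisons, which assume that the lone library varies like the others, the edgeR adjusted p were 0.170 and 0.148 in the one and 0.232 and 0.179 in the other, past no threshold. With the duct score as a term over all 10 libraries S1pr1 changed by 0.73 (edgeR adjusted p = 0.00644) and S1pr2 by -0.83 (edgeR adjusted p = 0.00397). Of 7 endothelial genes 1, Tie1, was higher, and they summed to 982 to 1521 normalised CPM in aADM2-tg and 919.6 to 1265 in WT. Of 6 macrophage genes 3 were lower, at sums of 418 to 712 against 748 to 974 normalised CPM, with no overlap. The 6 macrophage genes ranged from Adgre1, at a log2 change of -0.77 (edgeR adjusted p = 0.00299), to Itgax, at 0.31 (edgeR adjusted p = 0.474). Their median log2 change was -0.46. The part of endothelial cells and macrophages in the receptor changes was not tested.

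RefSeq promoters on GRCm38.p6, which run from 250 bases before to 50 after the start, were at hand for 40 of the 45 genes. Those of S1pr2, and of Cers4 and Cers6, whose ratio parted the groups as given below, are shown 5′ to 3′. Capitals mark the GC box (GGGCGG), the CCAAT box, the TATA box (TATAAA) and the E-box (CACGTG), searched on both strands. No promoter entry was at hand for S1pr1.
S1pr2, chr9:20976744-20977043, minus strand: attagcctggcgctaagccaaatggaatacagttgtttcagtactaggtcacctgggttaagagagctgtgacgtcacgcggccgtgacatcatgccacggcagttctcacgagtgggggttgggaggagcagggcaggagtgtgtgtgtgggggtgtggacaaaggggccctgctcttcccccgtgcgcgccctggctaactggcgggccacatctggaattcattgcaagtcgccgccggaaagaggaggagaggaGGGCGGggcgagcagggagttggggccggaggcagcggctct
Cers4, chr8:4493155-4493454, plus strand: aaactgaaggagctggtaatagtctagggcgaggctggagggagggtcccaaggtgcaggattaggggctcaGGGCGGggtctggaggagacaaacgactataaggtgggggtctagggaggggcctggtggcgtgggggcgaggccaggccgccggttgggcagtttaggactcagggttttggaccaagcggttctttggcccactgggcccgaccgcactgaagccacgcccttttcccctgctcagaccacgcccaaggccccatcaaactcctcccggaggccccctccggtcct
Cers6, chr2:68861191-68861490, plus strand: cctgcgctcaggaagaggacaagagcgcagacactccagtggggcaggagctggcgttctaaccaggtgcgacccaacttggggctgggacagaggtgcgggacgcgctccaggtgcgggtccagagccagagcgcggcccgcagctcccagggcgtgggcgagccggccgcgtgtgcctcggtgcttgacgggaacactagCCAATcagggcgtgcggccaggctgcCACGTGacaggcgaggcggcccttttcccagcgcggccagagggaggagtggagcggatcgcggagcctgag
The windows of S1pr2 and Cers4 each hold 1 GC box, and that of Cers6 holds 1 CCAAT box and 1 E-box. Among 32851 RefSeq promoters of this length, 35.7% hold a GC box, 37.4% a CCAAT box, 13.6% a TATA box and 7.15% an E-box. Their base composition was 62.0%, 64.3% and 70.0% G and C for S1pr2, Cers4 and Cers6, against a median of 52.7% over the table. A match describes these letters and is not a binding site. The coordinates of the deposited table carry no build and are not compared with these.

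In ceramide synthesis 3 of the 13 tested genes were higher and 0 lower in aADM2-tg, with 10 not past the test, a share of 23.1% against the background of 26.5%. The median log2 change of the 13 was 0.11. The genes past the test were Kdsr, the reductase that follows serine palmitoyltransferase, and the ceramide synthases Cers2, which prefers very long acyl chains, and Cers4, which prefers long ones. The changes were between 1.16-fold and 1.25-fold.

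Cers4 (ENSMUSG00000008206, chromosome 8, 4543026 to 4581680, plus strand) stood at 72.7, 79.6, 70.2, 74.9 and 77.0 normalised CPM in tg1 to tg5, against 62.7, 55.4, 63.9, 51.9 and 66.5 in WT1 to WT5. The groups did not overlap, and tg2, with duct RNA, was the highest transgenic library. Cers4 averaged 74.9 ± 3.65 normalised CPM in aADM2-tg and 60.1 ± 6.17 in WT (SD, n = 5 each; log2 0.32, SE 0.0750, edgeR adjusted p = 0.0125), and changed by 0.33 with the duct score as a term (edgeR adjusted p = 0.0296). Its call ended in limma-trend on log2 of FPKM plus 1 (adjusted p = 0.0502), and a correction for exonic length and GC content, in which the median of all genes stood at 0.14, gave a log2 change of 0.77.

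Kdsr stood at 87.5, 81.6, 96.3, 81.7 and 90.4 normalised CPM in tg1 to tg5, against 79.5, 72.2, 79.5, 69.3 and 75.5 in WT1 to WT5 (log2 0.22, SE 0.0649, edgeR adjusted p = 0.0308). The groups did not overlap, but the gap between tg2 and WT3 was small beside the spread within each group. Cers2 averaged 208 ± 15.2 normalised CPM in aADM2-tg, from 185 in tg2 to 222 in tg5, and 179 ± 11.2 in WT, from 162 in WT2 to 191 in WT1 (log2 0.22, SE 0.0685, edgeR adjusted p = 0.0396). Both calls ended with the duct score as a term, at a log2 change of 0.17 for Kdsr (edgeR adjusted p = 0.150) and 0.14 for Cers2 (edgeR adjusted p = 0.209), and with libraries scaled by their totals alone, and Cers2 lost its call without a filter on low counts and in the fit corrected for length and GC content. The call of Kdsr also ended in limma-trend (adjusted p = 0.0703) and without any one of tg1, tg3, tg5, WT2, WT4 or WT5. That of Cers2 ended without any one library except tg2 or WT1. Cers2 overlaps Setdb1 on the other strand, with 33079 against 8890 counts over all libraries, and whether counting used strand was not given in the sources used here.

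Cers6, one of the synthases that prefer palmitoyl chains, went the other way without passing the test. It stood at 47.5, 60.3, 44.9, 37.6 and 43.0 normalised CPM in tg1 to tg5, against 55.5, 58.7, 50.8, 51.8 and 66.6 in WT1 to WT5 (log2 -0.28, SE 0.122, edgeR adjusted p = 0.111). Only tg2 among the transgenic libraries reached the WT range. Leaving out WT1 and tg2, whose duct RNA is unlike that of their groups, the log2 change was -0.40 (edgeR adjusted p = 0.0126). That fit leaves duct RNA in WT libraries only, so genotype and duct RNA cannot be told apart in it. With the duct score as a term the log2 change of Cers6 was -0.17 (edgeR adjusted p = 0.350), and with tg2 against WT2 to WT5 it was 0.07. Cers5, the other palmitoyl-preferring synthase, was at 72.2 ± 5.51 in aADM2-tg and 64.8 ± 2.35 normalised CPM in WT (edgeR adjusted p = 0.0805).

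Per length, Cers2 made up most of the ceramide synthase transcripts. Its share of the summed FPKM of the 6 synthases was 63.9% ± 2.2 in aADM2-tg and 61.9% ± 1.03 in WT, followed by Cers5 with 23.1% ± 1.56 and 23.3% ± 0.901. The smaller shares moved in opposite directions: Cers4 held 6.93% ± 0.565 in aADM2-tg and 6.23% ± 0.439 in WT, and Cers6 held 5.99% ± 1.33 and 8.15% ± 0.956. In FPKM, Cers4 stood at 0.956 to 1.44 times Cers6 in aADM2-tg libraries and at 0.683 to 0.910 times in WT libraries, with no overlap. Most ratios computed between members overlapped, and the normalised CPM of Cers4 alone already parted the groups. As shares of normalised CPM, which weigh long transcripts more, Cers4 was 18.7% in aADM2-tg and 16.6% in WT and Cers6 11.6% and 15.7%, so the order of these genes in WT depends on the scale. These shares and ratios are descriptions and carry no test. Cers1 had 1 to 5 counts per library in aADM2-tg and 1 to 6 in WT, and was not tested.

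**Figure D3:**
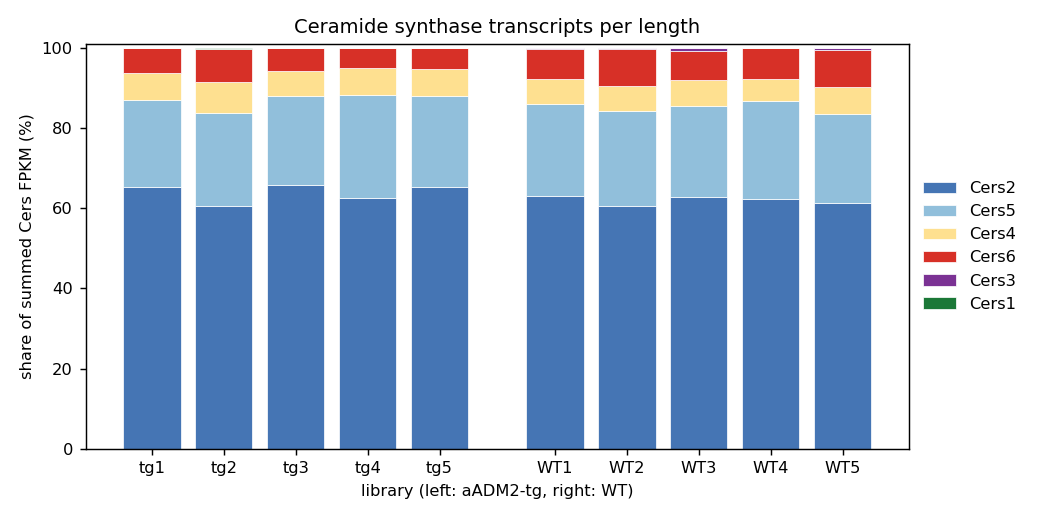
Share of each ceramide synthase gene in the summed FPKM of the 6 (y axis, percent) in each library, aADM2-tg left and WT right. Cers2 fills 60.5% to 65.9% of every bar, and the Cers6 segment is 4.80% to 8.19% in aADM2-tg and 7.17% to 9.25% in WT.

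The first and last steps of synthesis were near their WT levels. The large subunits of serine palmitoyltransferase, Sptlc1 and Sptlc2, were at 58.5 ± 2.53 and 67.2 ± 5.31 normalised CPM in aADM2-tg and at 54.2 ± 2.03 and 67.2 ± 5.68 in WT (edgeR adjusted p = 0.135 and 0.992). The small subunit Sptssa was at 82.5 ± 9.48 and 76.6 ± 8.30 (edgeR adjusted p = 0.425), while the other small subunit, Sptssb, had 0 counts in all 10 libraries. Degs1, the desaturase that makes ceramide from dihydroceramide, was at 174 ± 13.2 in aADM2-tg and 174 ± 8.83 normalised CPM in WT (log2 0.00, SE 0.0653, edgeR adjusted p = 0.988). Its relative Degs2 averaged under 1 normalised CPM in both groups.

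Among the ORMDL proteins, which restrain serine palmitoyltransferase, Ormdl3 dominated. Per length it held 91.5% ± 1.47 of ORMDL transcripts in aADM2-tg and 92.3% ± 0.777 in WT, and at 114 ± 22.6 and 109 ± 7.05 FPKM it had the highest level of the 45 genes. Ormdl3 spread widely in aADM2-tg, with 256, 189.5, 327, 307 and 203 normalised CPM in tg1 to tg5, against 275, 227, 230.1, 218 and 223 in WT1 to WT5 (log2 0.13, SE 0.150, edgeR adjusted p = 0.549). Ormdl1 (edgeR adjusted p = 0.568) and Ormdl2 (edgeR adjusted p = 0.0993) did not pass the test, and Ormdl2 overlaps Dnajc14 and Sarnp on the other strand, both with more counts than its own.

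Of the 8 tested genes of ceramide and S1P breakdown 1 rose, 2 fell and 5 did not pass the test, so that 37.5% were called against the background of 26.5%. All 3 were ceramidases, and they did not move together. Asah1, the lysosomal acid ceramidase, and Acer3, an alkaline ceramidase of the endoplasmic reticulum and Golgi, fell, while Acer2, the Golgi alkaline ceramidase, rose.

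Asah1 stood at 125.5, 127, 131.5, 118 and 123.5 normalised CPM in tg1 to tg5, against 161, 147, 130.4, 149 and 143 in WT1 to WT5. The fall was small and rested on a tight transgenic group, of which only tg3 reached the lowest WT library, WT3. The means were 125 ± 4.97 and 146 ± 11.1 (SD, n = 5 each; log2 -0.22, SE 0.0626, edgeR adjusted p = 0.0245), and with the duct score as a term the change was -0.26 (edgeR adjusted p = 0.0353). The call ended without tg4 or WT4 (edgeR adjusted p up to 0.0579), without a filter on low counts (edgeR adjusted p = 0.0788) and after a correction for exonic length and GC content (log2 -0.06, edgeR adjusted p = 0.672).

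Acer2 stood at 105, 71.7, 118, 78.4 and 109 normalised CPM in tg1 to tg5, against 75.0, 70.1, 73.2, 78.9 and 71.3 in WT1 to WT5 (log2 0.39, SE 0.128, edgeR adjusted p = 0.0464). The rise came from tg1, tg3 and tg5, and tg2 and tg4 lay within the WT range. Acer3 stood at 12.7, 17.7, 13.8, 14.4 and 14.3 normalised CPM in tg1 to tg5, against 19.3, 18.4, 15.9, 19.5 and 19.1 in WT1 to WT5 (log2 -0.34, SE 0.1003, edgeR adjusted p = 0.0314). Here tg2 alone overlapped the WT libraries. With the duct score as a term neither gene was called (edgeR adjusted p = 0.242 for Acer2 and 0.118 for Acer3), and with tg2 against WT2 to WT5 Acer2 turned to -0.04 and Acer3 came to -0.05. Both lost their call in limma-trend and without any one library, except tg2 or tg4 for Acer2 and tg2 or WT3 for Acer3. Acer2 also lost its call with library totals alone (edgeR adjusted p = 0.0687). Acer3 lost its call without a filter on low counts (edgeR adjusted p = 0.0756) and turned to 0.20 after the correction for length and GC content.

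The enzymes that make and remove S1P and passed the filter were not called. Sgpl1, the lyase that ends the pathway, was at 167 ± 18.6 normalised CPM in aADM2-tg and 176 ± 10.2 in WT (log2 -0.07, SE 0.0810, edgeR adjusted p = 0.521). Sphk2, the largely nuclear and mitochondrial sphingosine kinase, was at 16.02 ± 2.55 and 16.4 ± 1.06 (edgeR adjusted p = 0.851), and it overlaps Rpl18 and Dbp, which have more counts. Its relative Sphk1 was low and uneven, at 1.41 to 9.37 normalised CPM in aADM2-tg and 1.62 to 6.003 in WT (log2 0.16, SE 0.546, edgeR adjusted p = 0.848). Sgpp1, an S1P phosphatase, averaged 49.3 ± 17.4 in aADM2-tg, where tg2 alone reached 80.2, and 62.8 ± 7.78 normalised CPM in WT (edgeR adjusted p = 0.200). The neutral ceramidase Asah2 was at 57.7 ± 3.84 and 61.3 ± 3.57 (edgeR adjusted p = 0.337). The ceramidase Acer1 had at most 1 count in any library. Sgpp2, the other S1P phosphatase, was below the filter, with 1, 3, 1, 2 and 3 counts in tg1 to tg5 and 5, 20, 15, 15 and 8 in WT1 to WT5. Without a filter it was lower in edgeR (adjusted p = 0.00932) and in DESeq2 (adjusted p = 0.00229). It overlaps Farsb, which has 7504 counts against 73 of its own.

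**Figure D4:**
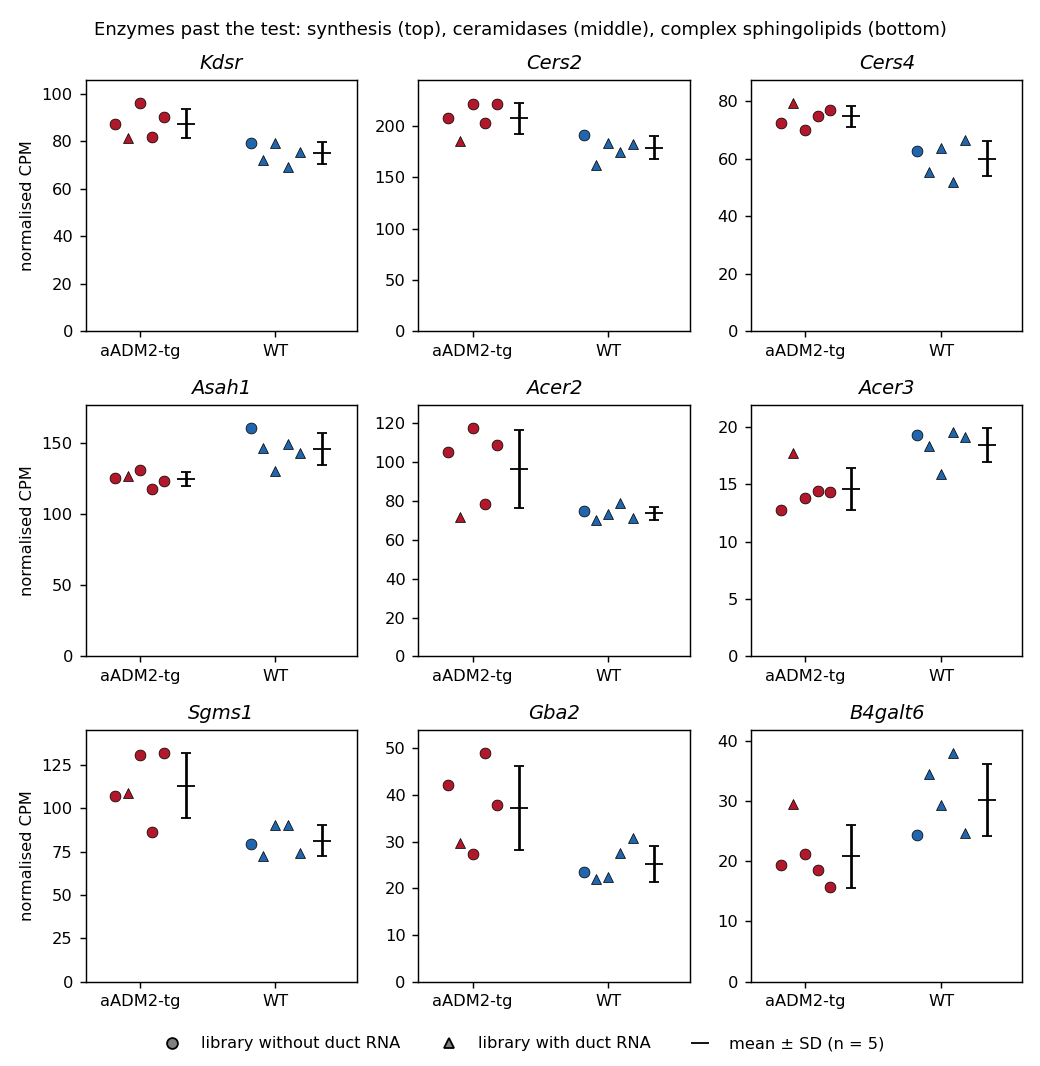
Normalised CPM (y axes, from 0) in each library of the 9 enzyme genes past the test, aADM2-tg left and WT right, with triangles for libraries with duct RNA and bars for mean ± SD. The groups do not overlap for Cers4 and Kdsr, and the triangle of tg2 lies inside the WT range for Acer2, Acer3, Cers2, Gba2 and B4galt6.

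Among the 15 genes of complex sphingolipids, all of them tested, 2 rose, 1 fell and 12 did not pass the test, so that 20% were called against the background of 26.5%. Sgms1, the Golgi sphingomyelin synthase, rose 1.39-fold. Gba2, the non-lysosomal glucosylceramidase, rose 1.47-fold, and B4galt6, one of the enzymes that turn glucosylceramide into lactosylceramide, fell to 0.691 of its WT level.

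Sgms1 (ENSMUSG00000040451, chromosome 19, 32100127 to 32367114, minus strand) stood at 107, 109, 131, 86.6 and 132 normalised CPM in tg1 to tg5, against 79.4, 72.2, 90.5, 90.4 and 74.1 in WT1 to WT5. Only tg4 fell within the WT range. The log2 change was 0.47 (SE 0.119, edgeR adjusted p = 0.0159), and it was 0.48 with the duct score as a term (edgeR adjusted p = 0.0360), 0.48 with tg1, tg3, tg4 and tg5 against WT1 and 0.40 with tg2 against WT2 to WT5. Sgms2, the synthase also found at the plasma membrane, did not pass the test. It was higher in every library with duct RNA than in any without, and the part of duct RNA in this was not tested. It stood at 10.3, 21.7, 6.34, 6.56 and 4.93 normalised CPM in tg1 to tg5, against 10.8, 24.2, 21.9, 21.4 and 13.3 in WT1 to WT5 (log2 -0.88, SE 0.396, edgeR adjusted p = 0.124). Sgms1 exceeded Sgms2 per length in every library, by 2.95 to 15.8 times in aADM2-tg and 1.76 to 4.32 times in WT.

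Gba2 stood at 42.2, 29.6, 27.3, 49.0 and 37.9 normalised CPM in tg1 to tg5, against 23.5, 22.0, 22.4, 27.6 and 30.9 in WT1 to WT5 (log2 0.56, SE 0.164, edgeR adjusted p = 0.0296). The groups overlapped, with tg2 and tg3 below WT5 and tg3 below WT4. Gba2 is overlapped on the other strand by Creb3 and Rgp1, with 5842 and 12525 counts against 5360 of its own, so its value is uncertain. B4galt6 stood at 19.4, 29.5, 21.2, 18.5 and 15.6 normalised CPM in tg1 to tg5, against 24.4, 34.5, 29.4, 38.0 and 24.6 in WT1 to WT5 (log2 -0.53, SE 0.179, edgeR adjusted p = 0.0482). In 4 of 5 transgenic libraries the value lay below every WT library, and tg2 lay among the WT values. Both calls ended with the duct score as a term (edgeR adjusted p = 0.124 for Gba2 and 0.190 for B4galt6), Gba2 also without any one of tg1, tg4, tg5, WT1, WT2 or WT3, and B4galt6 without any one of tg1, tg3, tg4, tg5, WT2, WT3 or WT4. Both also ended with library totals alone (edgeR adjusted p = 0.0519 and 0.0535), Gba2 in limma-trend (adjusted p = 0.0554), and B4galt6 without a filter (edgeR adjusted p = 0.0593) and with the correction for length and GC content (edgeR adjusted p = 0.0929).

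The other complex sphingolipid genes showed no change past the test. Ugcg, the glucosylceramide synthase, was at 50.8 ± 6.81 normalised CPM in aADM2-tg and 51.1 ± 4.44 in WT (log2 -0.01, SE 0.0975, edgeR adjusted p = 0.951). B4galt5, the other lactosylceramide synthase, had a log2 change of 0.04 (edgeR adjusted p = 0.910), and St3gal5, which makes the ganglioside GM3, one of 0.16 (edgeR adjusted p = 0.424). Of the sphingomyelinases, the lysosomal Smpd1 was at 80.3 ± 10.4 and 72.8 ± 3.48 normalised CPM (edgeR adjusted p = 0.227). The neutral sphingomyelinase genes Smpd2 (log2 -0.05), Smpd3 (0.43, with 10.2 to 36.5 normalised CPM in aADM2-tg and 13.4 to 24.8 in WT) and Smpd4 (0.20) had edgeR adjusted p of 0.630, 0.306 and 0.103. For Smpd4 all 5 transgenic libraries, at 30.1 to 41.1 normalised CPM, lay above the WT libraries at 27.5 to 29.7. The related Smpdl3a and Smpdl3b, the ceramide kinase Cerk and the galactosylceramidase Galc had log2 changes of 0.15, 0.16, -0.25 and -0.15, at edgeR adjusted p from 0.120 to 0.592.

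The 5 libraries with duct RNA (tg2 and WT2 to WT5) did not overlap the other 5 for 5 of the 39 tested sphingolipid genes, or 12.8%, against 14.2% of all tested genes. Of these genes, 3 were above the other libraries. Sgms2 stood at 13.3 to 24.2 normalised CPM with duct RNA and at 4.93 to 10.8 without, Sgpp1 at 54.8 to 80.2 and 38.3 to 54.1, and B4galt6 at 24.6 to 38.0 and 15.6 to 24.4. The other two were below them, Sptlc1 at 52.3 to 56.0 with duct RNA and 56.8 to 60.8 without, and Cers2 at 162 to 185 and 191 to 222. These values describe libraries by what they contain and carry no test.

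**Figure D5:**
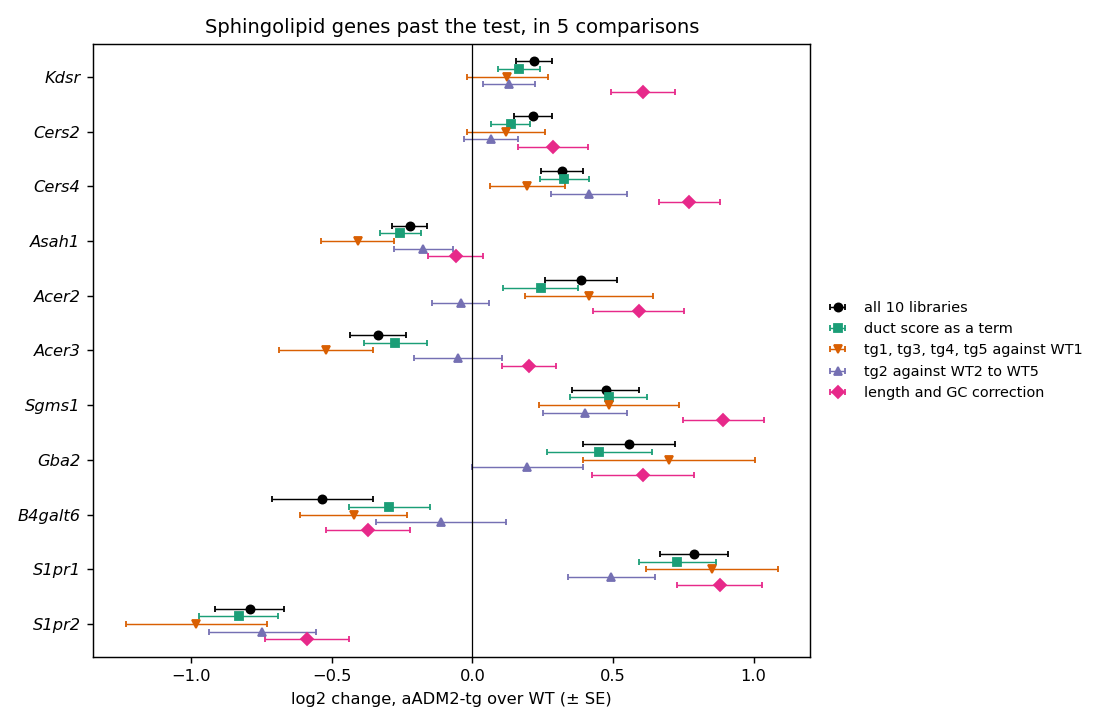
Log2 change of aADM2-tg over WT (x axis, ± SE) of the 11 sphingolipid genes past the test, over all libraries, with the duct score as a term, within the libraries without and with duct RNA, and corrected for exonic length and for GC, which moved the median of all genes to 0.14. Of the 11 genes all but Acer2 and Acer3 keep their sign in all 5, and these 2 each cross 0 in 1.

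Of 62 further genes of sphingolipid transport, fatty acid elongation, ganglioside and adiponectin receptor biology, 51 were tested, and 10 rose, 5 fell and 36 did not pass the test, so that 29.4% were called against the background of 26.5%. The median log2 change was 0.09. With the duct score as a term 5 of these genes were called higher and 4 lower. The values below are from the fit without that term. Around the sphingomyelin step, Cert1, which carries ceramide to the Golgi, fell to 86.8 ± 8.76 normalised CPM in aADM2-tg, against 112 ± 5.46 in WT (log2 -0.37, edgeR adjusted p = 0.00627). Samd8, a ceramide phosphoethanolamine synthase of the endoplasmic reticulum, fell to 46.5 ± 1.59, against 61.0 ± 5.74 (log2 -0.39, edgeR adjusted p = 0.00394). In both, the groups did not overlap.

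Of the lipid phosphate phosphatases, which can dephosphorylate S1P outside the cell, Plpp2 rose to 16.7 ± 2.45 normalised CPM in aADM2-tg, against 10.6 ± 0.834 in WT (edgeR adjusted p = 0.00357). Plpp3, the most abundant of the 3 and called just inside the threshold, was at 265 ± 40.8 and 216 ± 9.05 normalised CPM (log2 0.29, edgeR adjusted p = 0.0422), and Plpp1 at 27.9 ± 3.95 and 23.4 ± 2.89 (edgeR adjusted p = 0.118). A4galt, which makes globotriaosylceramide, rose to 15.6 ± 1.76, against 10.4 ± 1.11 (edgeR adjusted p = 0.00483). Adipor2, an adiponectin receptor linked to ceramidase activity, rose to 860 ± 80.1, against 607 ± 94.3 normalised CPM (log2 0.50, edgeR adjusted p = 0.0103). Pm20d1, an N-acyl amino acid synthase, Ppp2r1a, a subunit of protein phosphatase 2A, and Paqr4, of the adiponectin receptor family, rose by 0.92, 0.30 and 0.45 on the log2 scale (edgeR adjusted p = 0.00183, 0.0130 and 0.0197). Elovl6 and Hacd4, genes of fatty acid elongation, fell, with log2 changes of -0.94 and -0.60 (edgeR adjusted p = 0.00977 and 0.0162). Another elongation gene, Elovl5, rose, with a log2 change of 0.19 (edgeR adjusted p = 0.0304). Paqr3, a Golgi member of the adiponectin receptor family, fell, with a log2 change of -0.70 (edgeR adjusted p = 0.0206). Paqr7, of the same family, rose by 0.26 (edgeR adjusted p = 0.0344).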

How the data were processed

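Poly(A) libraries of 10 mice were processed with tools that include HISAT2 2.2.1 and HTSeq 0.6.1, per the submitters' processing notes, which give no roles. Build, annotation and strandedness were not given in the sources used here. Raw read counts stand in 1 column per mouse, per the file headers. FPKM were made by the authors per kilobase of exonic length and per 1e6 counted reads; recomputed values matched the 7 deposited columns used within 0.01 for at least 56661 of 56691 genes, and 3 further per-sample columns were not used. Exonic gene lengths are used as deposited. Groups follow the sample labels; tg3, tg4 and tg5 are numbered by column names, since titles and descriptions disagree.

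Counts were tested in R 4.3.3 with edgeR 4.0.16: filterByExpr, TMM, and quasi-likelihood tests of genotype over all 10 libraries, with Benjamini-Hochberg adjustment and a threshold of 0.05. SE is the log2 change over the root of F. Alternatives were DESeq2 1.42.0 and its size factors, limma 3.58.1 on log2 of FPKM plus 1 (at least 1 FPKM in 5 libraries), voom with sample weights, no filter, a minimum mean of 10 CPM, every library omitted in turn, a replicate block, the duct score (mean log2 of normalised CPM plus 0.1) as a term, the libraries with and without duct RNA apart, and no WT1 and tg2. Chosen after seeing the data were library totals alone and a loess correction (span 0.3) for length and GC content, with a GC value for 98.5% of tested genes.

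Members and lists were chosen with earlier results of these data known. All 45 members are accounted for: those past the test get values per library or as ranges, the others means or ranges, untested ones counts. Up to 6 further genes per direction are named by adjusted p. Plpp1, Plpp3, Elovl5 and Paqr7 were added once their values had been seen. Of 65 listed further symbols, 62 matched. On simulated data with 200 of 16235 tested genes changed, 61% of 2-fold and 81% of 4-fold changes were called, with 11 false among 153 calls. Figures used matplotlib 3.10.9.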

Additional observations from a re-analysis of the deposited data

Results flagged for a closer look

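Within the groups of 5, 5 of 78 sets of values held a library whose gap to its nearest neighbour exceeded 0.71 of the range of its group (Dixon's test), where chance gives about 1 in 20. Ormdl3 in WT1 stood at 275 normalised CPM, against 218 to 230.1 in the other WT libraries. Sgpp1 in tg2 stood at 80.2, against 38.3 to 43.1 in the other transgenic libraries. Cerk in WT3 stood at 26.1, against 31.7 to 33.4 in the other WT libraries. Smpd3 in WT1 stood at 24.8, against 13.4 to 16.4. Smpd4 in tg5 stood at 41.1, against 30.1 to 32.4 in the other transgenic libraries. None of these 5 genes passed the test between the groups. WT1 and tg2 are the libraries that part from their group in duct RNA.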

How the results depend on the processing

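S1pr1 and S1pr2 were called in each of the other fits in which they were tested, except in the comparisons within libraries that share the state of duct RNA, and Cers4 and Sgms1 likewise except that Cers4 was not called in limma-trend. Over all genes 52.0% of calls were higher, against 41.9% with library totals only, 39.9% with the duct score as a term and 75.7% with the correction for length and GC content, which moved the median log2 change of all genes to 0.14, against 0.02, and the changes of Kdsr, Cers4, Acer2 and Sgms1 to 0.61, 0.77, 0.59 and 0.89. Limma-trend gave -0.43 for S1pr2, since log2 of FPKM plus 1 understates changes of low genes. The 7 higher and 4 lower sphingolipid genes became 3 to 7 and 1 to 7 when 1 library was left out, the further 10 and 5 genes became 5 to 15 and 4 to 8, and all genes 1370 to 3050 higher and 1609 to 3629 lower. The sphingolipid genes called higher numbered 3 without tg1, tg5 or WT2 and 4 without tg3, WT3, WT4 or WT5. Those called lower numbered 1 without tg4 or WT4, 2 without tg1, tg3 or WT2 and 7 without tg2. Further genes called higher numbered 5 without WT2 and 6 without tg3 or WT4, and lower 8 without tg5. All genes called higher numbered 1370 without WT2 and 1505 to 1518 without WT3, WT4 or WT5, and lower 3629 without tg2. With the duct score as a term 3 were higher and 2 lower, with 975 genes higher in all and 5 of the further genes higher. DESeq2, which fitted 44 of the 45, called 7 higher and 6 lower, Cers3 and Sgpp2 among the lower. Without a filter 2 were lower, S1pr2 and Sgpp2, and 6 of the further genes higher, in limma-trend 3 and 6 were higher, and in voom 7 and 8 were lower. Without WT1 and tg2, 7 were lower, 16 of the further genes higher and 3622 genes lower in all. That fit leaves duct RNA in WT libraries only, so genotype and duct RNA cannot be told apart in it. With library totals only 3 were higher. With the correction for length and GC content 1 was lower, 1 of the further genes and 852 genes in all, and Acer3 turned to 0.20, Asah2 to 0.40 and Galc to 0.41, the last pair past the test. In libraries without duct RNA edgeR called 0 higher and 0 lower sphingolipid genes (6 at an unadjusted p under 0.05), 0 and 0 further genes (10 unadjusted), and 1 higher and 34 lower in all. In libraries with duct RNA it called 0 and 0 (8 unadjusted), 0 and 0 (9 unadjusted), and 1 and 0 in all (3093 unadjusted), with Acer2 at -0.042. No other tool was run on these subsets. All 11 called genes kept their direction in the first subset and 10 of 11 in the second. These subsets reuse the libraries that made the calls, so the agreement is not independent of them. For Kdsr, Cers4, S1pr1 and S1pr2, whose groups do not overlap, the direction was all but fixed in advance. The cause of these moves was not tested, and each subset has 1 library on one side. Of the 28 genes not past the test, 7 were called in some alternative. In 74 of 639 alternative fits of the 28 the sign turned with neither value past the test. Cerk was called without tg5 (log2 -0.34, edgeR adjusted p = 0.0244). Cers6, Sgpp1 and Sgms2 were called in edgeR without tg2 (log2 -0.40, -0.61 and -1.39, adjusted p = 0.00835, 0.00118 and 0.00367), a fit that leaves duct RNA in WT libraries only. With the duct score as a term these 3 genes changed by -0.17, -0.08 and -0.35 (edgeR adjusted p = 0.350, 0.642 and 0.322). With tg2 against WT2 to WT5 they changed by 0.07, 0.30 and 0.09. Same-numbered libraries' deviations correlated at 0.485, 0.674, -0.385, -0.255 and 0.0398 for numbers 1 to 5. Of 5 transgenic libraries 2 correlated best with their own number. Numbering of tg3 to tg5 is uncertain, so pairing cannot be decided. With the replicate block 6 sphingolipid genes were higher and 3 lower, and all genes 1853 and 2114. It called Sgms2 (log2 -1.02, edgeR adjusted p = 0.0457) and lost Asah1, Acer2 and Acer3 (edgeR adjusted p = 0.0626, 0.0639 and 0.0507). Depth limits Cers1, Cers3, Sptlc3, Sgpp2, Acer1 and Sptssb, which were below the filter on low counts.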

Other observations

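Among the genes below the filter on low counts, Cers3 and Sptlc3 exceeded a few counts in some libraries. Cers3, a synthase known from skin and testis, had 12, 33, 0 and 20 counts in WT2 to WT5, against 1 or 2 in the other 6 libraries. The male germ cell list summed to 139 to 173 normalised CPM in WT2, WT3 and WT5, with at most 15.4 in the other 7. Sptlc3, a large subunit of serine palmitoyltransferase, had 9 counts in tg2 and 19, 12 and 20 in WT2 to WT4, against 0 to 4 in tg1, tg3, tg4, tg5, WT1 and WT5. Cers3 was lower in DESeq2 (adjusted p = 0.0317) and was not called by edgeR without a filter (adjusted p = 0.0716), and Sptlc3 was called by neither (adjusted p = 0.173 and 0.215). The part of germ cell or duct RNA in these counts was not tested.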
